A study of Homo sapiens with 12 samples.

Results

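The transcripts of 9 genes of the MHC class I pathway were followed through BCL6 knockdown in 2 lymphoma lines. They are the heavy chains HLA-B, HLA-C, HLA-E and HLA-F, the light chain B2M, the peptide transporter genes TAP1 and TAP2, the loading factor TAPBP and the transactivator NLRC5. They are 9 of the 19775 genes that the annotation gives a probe set of their own. Every probe set that is listed for one of these symbols was taken, which made 25 of the 54675 probe sets on the array. All 25 are listed for 1 symbol each, and 0 for several HLA genes. However, 11 of the 13 heavy chain probe sets have names ending in _x_at, which marks probes that can also bind related transcripts, so a signal named for one heavy chain can include others.

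RNA had been measured on 12 Affymetrix U133 Plus 2.0 arrays, 3 per group. OCI-Ly7 and Pfeiffer, both established diffuse large B-cell lymphoma lines of the germinal centre type, received BCL6 siRNA or a non-target control by transfection, and total RNA was taken after 48 h. BCL6 represses transcription in germinal centre B cells, and the design asks which transcripts change when it is lowered. For the Pfeiffer controls the titles read shRNA and the descriptions siRNA. Whether the 3 arrays of a group stand for 3 cultures is not given in the labels. The p-values therefore reflect the spread among these arrays alone, which may be technical.

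MHC class I molecules show peptides from inside the cell to CD8 T cells. A heavy chain pairs with beta-2-microglobulin in the endoplasmic reticulum, where TAP1 and TAP2 pump in peptides and tapasin, the product of TAPBP, holds the empty molecule at the transporter until a peptide fits. NLRC5 acts at the promoters of class I genes, and interferons and NF-kB raise the same genes. Loss of class I presentation is a known way for B-cell lymphomas to avoid T cells.

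The 250 bases before the start of 6 of these genes are shown because the named boxes of class I promoters can be read in them side by side. By probe sets ending in _x_at HLA-B, HLA-C and HLA-F were higher in Pfeiffer than in OCI-Ly7, and TAP1 was higher there too. B2M was not called, and TAPBP fell in Pfeiffer after BCL6 siRNA. The sequences are RefSeq's for GRCh38.p14, written 5′ to 3′ on the gene's own strand, and are not those of the cell lines. Capitals mark matches on either strand to 5 motifs. These are the Y box core CCAAT, the X2 box or CRE core TGACG, the interferon response element (GAAA, any 2 bases, GAAA), the NF-kB site (GGG, any 2 bases, TT, any 1 base, CC) and the BCL6 site core (TTCC, any 2 bases, GAA).
HLA-B (chr6:31357180-31357429, minus strand): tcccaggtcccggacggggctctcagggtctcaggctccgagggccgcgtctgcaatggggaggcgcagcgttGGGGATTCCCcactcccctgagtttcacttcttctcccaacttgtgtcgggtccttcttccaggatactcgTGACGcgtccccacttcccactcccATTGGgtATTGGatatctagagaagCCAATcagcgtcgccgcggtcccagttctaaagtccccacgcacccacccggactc
HLA-C (chr6:31272093-31272342, minus strand): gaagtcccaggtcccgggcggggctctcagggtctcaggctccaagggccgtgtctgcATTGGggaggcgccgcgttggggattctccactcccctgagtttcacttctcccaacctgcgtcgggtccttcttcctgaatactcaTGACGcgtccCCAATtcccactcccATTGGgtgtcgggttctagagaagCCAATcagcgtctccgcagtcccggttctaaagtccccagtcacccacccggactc
HLA-F (chr6:29723184-29723433, plus strand): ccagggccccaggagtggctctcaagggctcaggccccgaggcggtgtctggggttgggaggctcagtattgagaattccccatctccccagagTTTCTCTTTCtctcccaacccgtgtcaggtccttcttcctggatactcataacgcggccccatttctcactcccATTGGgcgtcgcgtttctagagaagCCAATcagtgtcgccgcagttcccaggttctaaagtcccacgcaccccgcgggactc
B2M (chr15:44711267-44711516, plus strand): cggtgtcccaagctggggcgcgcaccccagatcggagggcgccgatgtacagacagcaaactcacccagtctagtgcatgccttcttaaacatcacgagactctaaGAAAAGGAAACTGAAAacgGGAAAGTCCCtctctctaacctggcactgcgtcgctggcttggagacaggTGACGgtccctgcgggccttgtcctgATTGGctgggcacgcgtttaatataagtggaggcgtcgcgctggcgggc
TAP1 (chr6:32853705-32853954, minus strand): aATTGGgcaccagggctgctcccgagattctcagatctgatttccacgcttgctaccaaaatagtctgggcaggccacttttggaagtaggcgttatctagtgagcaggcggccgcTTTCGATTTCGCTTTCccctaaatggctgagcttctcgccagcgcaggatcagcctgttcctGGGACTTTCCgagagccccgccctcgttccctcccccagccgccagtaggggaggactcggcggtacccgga
TAPBP (chr6:33314079-33314328, minus strand): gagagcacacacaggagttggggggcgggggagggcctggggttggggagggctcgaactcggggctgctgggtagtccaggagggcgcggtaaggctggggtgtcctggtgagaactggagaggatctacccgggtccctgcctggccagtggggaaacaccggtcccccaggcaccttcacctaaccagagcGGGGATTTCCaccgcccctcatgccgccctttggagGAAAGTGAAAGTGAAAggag

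In these letters the HLA-B window holds an NF-kB match 177 to 168 bases before the start, a TGACG match at 106 to 102 and 3 CCAAT matches between 81 and 52. The HLA-C window holds TGACG at 105 to 101 and 4 CCAAT matches but no match to the NF-kB letters. The B2M window holds overlapping interferon response matches at 144 to 135 and 138 to 129, with an NF-kB match at 125 to 116. The TAPBP window holds 2 overlapping interferon response matches at 20 to 11 and 14 to 5, an NF-kB match at 56 to 47, and neither CCAAT nor TGACG. Promoters were held for 7 of the 9 genes. Over their first listed starts CCAAT was matched in 5 of 7, TGACG in 4, the interferon response element in 5 and the NF-kB site in 4. Among all 35116 promoter windows of that length the shares were 32%, 21.2%, 3.02% and 5.07%. The BCL6 core letters were found in 0 of those 7 windows and in 3.86% of all, and in the window of the second TAP1 start. A match describes letters only, and no factor's binding was measured.

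Values are given as level, which is log2(signal + 16) of the array signal, and a change is a difference of such levels. This scale understates the change of dim probe sets. Levels of different probe sets cannot be set against each other. Of the 25 probe sets, 23 were bright enough to be tested (a mean of at least 6.83 in the brighter line), and TAP2 208428_at and TAPBP 210294_at were not. Tests are limma's, two-sided, adjusted by Benjamini-Hochberg over 27307 probe sets, with 0.05 as the threshold. Called means past that threshold. With 3 arrays against 3 an exact permutation test of 1 probe set cannot go below p = 0.1, the value it gives whenever the groups do not overlap. In RNA of whole cultures, fewer cells of one kind and less RNA per cell cannot be told apart.

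The arrays of a group correlated at 0.963 to 0.968 over all probe sets and those of different lines at 0.866 to 0.876. BCL6 itself, the targeted gene, fell by 0.42 ± 0.08 (SE) in OCI-Ly7 (limma, adjusted p = 0.0128) and by 0.96 ± 0.08 in Pfeiffer (limma, adjusted p = 1.05e-06). The OCI-Ly7 call ended without limma's trend (adjusted p = 0.12), with a replicate block (adjusted p = 0.0537) and without control replicate 3 (adjusted p = 0.0529) or siRNA replicate 1 (adjusted p = 0.0592) of that line. Of the B cell markers 5 were analysed, and all lay at 7.91 or above on every array. The 5 T and NK cell markers stayed between 4.18 and 7.58 and the 3 myeloid markers between 4.13 and 7.35.

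**Figure D1:**
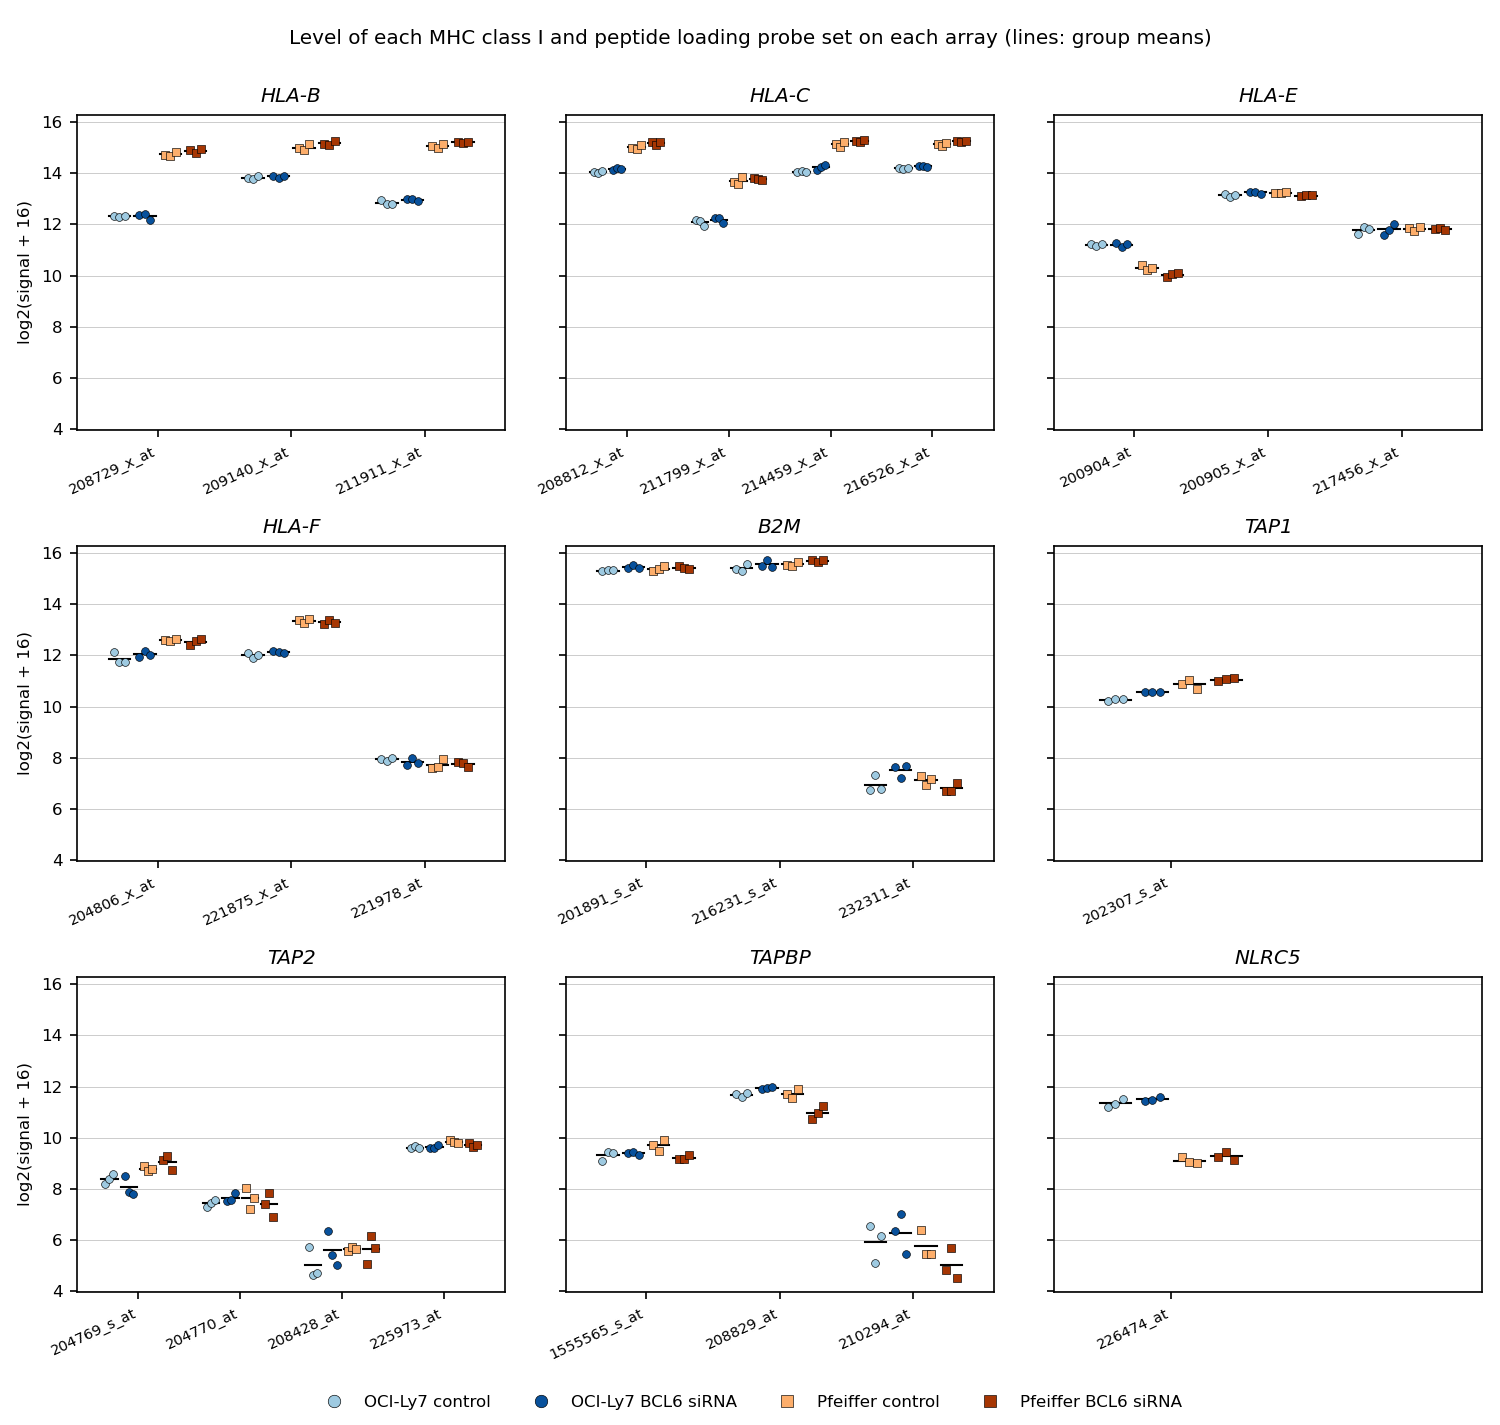
Level, as log2(signal + 16), of each of the 25 probe sets on each of the 12 arrays, 1 panel per gene. Points are arrays, circles for OCI-Ly7 and squares for Pfeiffer, light for control and dark for BCL6 siRNA, and short lines are group means. For example, the lines separate for HLA-B, HLA-C and NLRC5, and siRNA and control separate for TAPBP 208829_at in Pfeiffer. Other probe sets separate as well, such as HLA-F 221875_x_at and HLA-E 200904_at between the lines and TAPBP 1555565_s_at in Pfeiffer.

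Without BCL6 siRNA the lines differed in their classical heavy chains and in NLRC5, in opposite directions. All 7 probe sets of HLA-B and HLA-C were brighter in Pfeiffer, by 1.9-fold to 5.35-fold, while NLRC5 was 4.75-fold dimmer there. These 7 all end in _x_at. The heavy chain probe sets without that ending were not higher in Pfeiffer, with HLA-E 200904_at at -0.91 (called) and HLA-F 221978_at at -0.22 (not called). Of the 23 tested probe sets 12 were higher in Pfeiffer and 2 lower, which is 60.9% called. Of all probe sets tested 71.2% were called, 31.9% higher and 39.3% lower, so the members' share lay below the background. The median difference was 0.39, against -0.12 over all tested probe sets.

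HLA-B encodes one of the classical heavy chains that present peptides to CD8 T cells. Its probe set 208729_x_at read 12.34, 12.28 and 12.34 on the OCI-Ly7 control arrays and 14.72, 14.67 and 14.82 on the Pfeiffer control arrays. All Pfeiffer arrays lay far above all OCI-Ly7 arrays, a difference of 2.42 ± 0.07 (SE, limma, adjusted p = 7.01e-14). Probe set 211911_x_at gave much the same, with 12.97, 12.79 and 12.80 in OCI-Ly7 and 15.07, 15 and 15.14 in Pfeiffer, a difference of 2.22 ± 0.06 (limma, adjusted p = 4.51e-14). Probe set 209140_x_at read 13.82, 13.76 and 13.90 against 14.97, 14.91 and 15.12, and its difference was about 1 log2 unit smaller, at 1.17 ± 0.06 (limma, adjusted p = 1.17e-10). The HLA-B probe sets thus agreed in direction but not in size, from 2.26-fold to 5.35-fold.

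HLA-C, a classical heavy chain that is also read by killer cell receptors, has 4 probe sets. Probe set 211799_x_at read 12.17, 12.12 and 11.95 in OCI-Ly7 controls and 13.66, 13.59 and 13.84 in Pfeiffer controls, a difference of 1.62 ± 0.08 (limma, adjusted p = 2.79e-11). The other 3 were nearer to each other. Probe set 208812_x_at rose from 14.05 ± 0.03 (SD, n = 3) to 15.02 ± 0.07, 214459_x_at from 14.06 ± 0.02 to 15.12 ± 0.10 and 216526_x_at from 14.20 ± 0.04 to 15.12 ± 0.06 between the OCI-Ly7 and Pfeiffer controls. Their differences were 0.97, 1.07 and 0.93 (limma, adjusted p = 1.71e-10, 1.82e-10 and 7.75e-11). The highest value of any probe set on any array was 16.27, so these probe sets lay near the upper end of the scale in Pfeiffer.

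HLA-E and HLA-F are nonclassical heavy chains; HLA-E presents leader peptides of other class I chains to receptors of NK cells. Their probe sets did not agree on the line difference. HLA-E 200904_at, the HLA-E probe set without the _x ending, read 11.23, 11.16 and 11.24 in OCI-Ly7 controls and 10.40, 10.20 and 10.31 in Pfeiffer controls, so every Pfeiffer array was lower (-0.91 ± 0.07, limma, adjusted p = 1.86e-08). HLA-E 200905_x_at differed by 0.11, with a 95% interval of 0.00 to 0.21 (limma, adjusted p = 0.0618), and 217456_x_at by 0.06 (-0.13 to 0.26; adjusted p = 0.55). HLA-F was higher in Pfeiffer by 204806_x_at (0.72 ± 0.09, limma, adjusted p = 4.63e-06) and by 221875_x_at (1.35 ± 0.06, limma, adjusted p = 2.85e-11). The dim HLA-F 221978_at stood at -0.22 (-0.57 to 0.14; limma, adjusted p = 0.253).

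B2M encodes the light chain that every class I heavy chain needs. Probe set 201891_s_at read 15.28, 15.35 and 15.32 in OCI-Ly7 controls and 15.29, 15.36 and 15.48 in Pfeiffer controls, and 216231_s_at read 15.39, 15.30 and 15.56 against 15.55, 15.50 and 15.63. The groups overlapped for both, and the differences were 0.06 (95% interval -0.06 to 0.18) and 0.15 (-0.01 to 0.30). The dim 232311_at differed by 0.17 (-0.34 to 0.69). After quantile normalization both bright probe sets were called, at 0.11 (adjusted p = 0.0299) and 0.21 (adjusted p = 0.00157). Both read 15.28 or more on every control array, near the upper end of the scale, and whether signals are compressed there was not tested. B2M 216231_s_at passed as well once OCI-Ly7 siRNA replicate 2 (adjusted p = 0.0481) or control replicate 3 of that line (0.22, adjusted p = 0.0173) was left out.

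In the 3 member genes of peptide transport and loading, TAP1, TAP2 and TAPBP, the lines differed less than in HLA-B. This does not hold for other loading genes, which are given with the pathway lists below. TAP1, one chain of the peptide pump, read 10.21, 10.29 and 10.31 in OCI-Ly7 controls and 10.90, 11.06 and 10.70 in Pfeiffer controls, higher by 0.62 ± 0.08 (limma, adjusted p = 5.38e-06). TAP2, the other chain, was higher by 0.23 ± 0.08 with 225973_at (limma, adjusted p = 0.0188), but not once control replicate 1 of OCI-Ly7 (adjusted p = 0.0541) or of Pfeiffer (adjusted p = 0.063) was left out. TAP2 204769_s_at stood at 0.39 (adjusted p = 0.0749) and 204770_at at 0.20 (adjusted p = 0.504). The former was called after quantile normalization (0.55, adjusted p = 0.0191) and without OCI-Ly7 siRNA replicate 1 (adjusted p = 0.0374). TAPBP 1555565_s_at was higher in Pfeiffer by 0.40 ± 0.12 (limma, adjusted p = 0.00664), while the brighter TAPBP 208829_at gave 0.04, with an interval of -0.19 to 0.26.

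NLRC5, known as an activator of class I promoters, was lower in Pfeiffer. Its probe set 226474_at read 11.22, 11.33 and 11.51 in OCI-Ly7 controls and 9.24, 9.06 and 9.03 in Pfeiffer controls, lower in Pfeiffer on every array (-2.25 ± 0.10, limma, adjusted p = 1.69e-11). The order of the lines was thus HLA-B and HLA-C higher and NLRC5 lower in Pfeiffer. With only 2 lines this is a description of these cells and no relation between the genes.

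**Figure D2:**
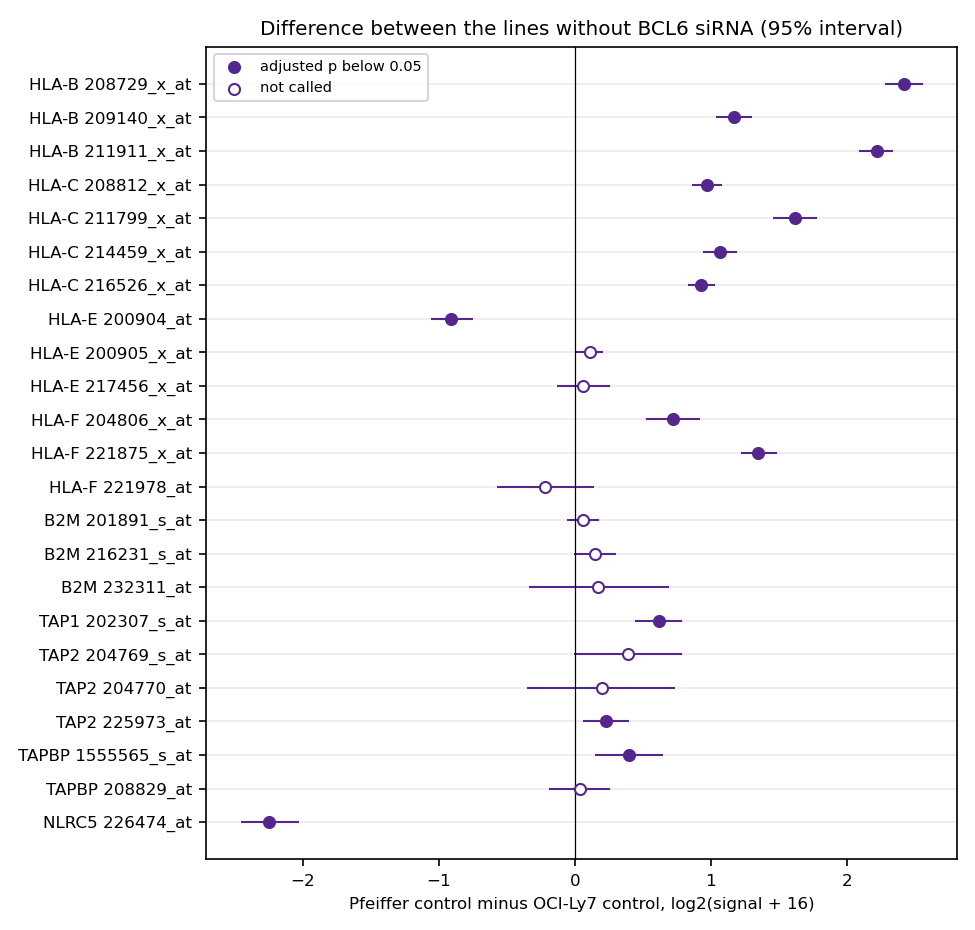
Difference of the Pfeiffer control and OCI-Ly7 control arrays, as log2(signal + 16), for each of the 23 tested probe sets, with limma's 95% confidence interval. Filled points passed an adjusted p of 0.05. HLA-B and HLA-C lie between 0.93 and 2.42, and NLRC5 lies at -2.25.

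BCL6 siRNA lowered TAPBP in Pfeiffer, the change with the lowest p among the 9 genes there. Both tested TAPBP probe sets fell, by 1.67-fold and 1.42-fold, and 1 HLA-E probe set fell by 1.21-fold. In Pfeiffer 0 of the 23 probe sets were called higher and 3 lower, 13% called in either direction, near the 9.94% of all probe sets tested. Of all, 4.91% were called higher and 5.02% lower. Every siRNA array lay above every control array on 3 of the 23 (13%), and below on 5 (21.7%), against 13.4% of all in either direction. At an unadjusted p of 0.05 the count was 9 of 23, or 39.1%, against 22.5% of all. Those 9 mixed rises of HLA-B and HLA-C probe sets with falls of HLA-E and TAPBP probe sets. Several of them share a target, so the 9 are not separate pieces of evidence. The median change was 0.05, against 0.01 over all.

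TAPBP 208829_at read 11.71, 11.56 and 11.90 in Pfeiffer controls and 10.75, 10.96 and 11.24 after siRNA. The groups did not overlap, and the level dropped from 11.72 ± 0.17 to 10.98 ± 0.24 (SD, n = 3 each). The change was -0.74 ± 0.10 (SE), with a 95% interval of -0.96 to -0.51 (limma, adjusted p = 0.000312). TAPBP 1555565_s_at read 9.72, 9.5 and 9.91 on control arrays and 9.16, 9.17 and 9.31 on siRNA arrays, again without overlap (-0.50 ± 0.12, limma, adjusted p = 0.0132). Its call ended without Pfeiffer control replicate 3 (-0.40, adjusted p = 0.0717). The dim, untested TAPBP 210294_at read 6.40, 5.48 and 5.47 against 4.82, 5.70 and 4.54, with overlap.

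HLA-E 200904_at read 10.40, 10.20 and 10.31 on Pfeiffer control arrays and 9.94, 10.05 and 10.09 on siRNA arrays, all lower than every control. Its change was -0.28 ± 0.07 (SE; 95% interval -0.43 to -0.12; limma, adjusted p = 0.0259). The call ended without control replicate 1 (adjusted p = 0.114), control replicate 3 (adjusted p = 0.0716), siRNA replicate 1 (adjusted p = 0.0953) or siRNA replicate 2 (adjusted p = 0.0507) of Pfeiffer, with the Pfeiffer arrays fitted alone (adjusted p = 0.0911) and without limma's trend (adjusted p = 0.0689). HLA-E 200905_x_at read 13.22, 13.21 and 13.28 against 13.09, 13.16 and 13.13, also without overlap but not called (-0.11, adjusted p = 0.182). HLA-E 217456_x_at stood at -0.03, with an interval of -0.22 to 0.17.

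The classical heavy chains gave small positive values in Pfeiffer, none of them called. The 7 probe sets of HLA-B and HLA-C stood at 0.07 to 0.16, with a median of 0.13 and adjusted p of 0.101 to 0.635. HLA-C 216526_x_at, for example, read 15.12, 15.06 and 15.18 on control arrays and 15.26, 15.23 and 15.26 on siRNA arrays, which did not overlap, and its 95% interval was 0.03 to 0.23. HLA-B 209140_x_at stood at 0.16 (0.03 to 0.30) and was called only without Pfeiffer control replicate 3 (0.22, adjusted p = 0.0438). HLA-F stood at -0.06 with 204806_x_at, -0.05 with 221875_x_at and 0.04 with 221978_at.

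B2M stood at 0.05 with 201891_s_at and 0.14 with 216231_s_at in Pfeiffer, with intervals of -0.07 to 0.18 and -0.02 to 0.30, and its dim 232311_at at -0.31 (-0.82 to 0.21). TAP1 read 10.90, 11.06 and 10.70 on control arrays and 10.99, 11.07 and 11.11 on siRNA arrays, which overlapped (0.17, 0.00 to 0.34, adjusted p = 0.233). The 3 tested TAP2 probe sets stood at 0.28, -0.25 and -0.14, and the bright one, 225973_at, was lower on all siRNA arrays without being called (adjusted p = 0.334). The dim TAP2 208428_at lay between 5.08 and 6.18 on the Pfeiffer arrays. NLRC5 read 9.24, 9.06 and 9.03 on control arrays and 9.24, 9.46 and 9.13 on siRNA arrays (0.17, -0.05 to 0.38, adjusted p = 0.357).

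In OCI-Ly7 0 of the 23 probe sets passed the threshold in limma, where 1.1% of all probe sets tested did, 0.623% higher and 0.48% lower. At an unadjusted p of 0.05 the count was 7 of 23, or 30.4%, against 11.8% of all. The changes were mostly small and positive, 19 above 0 and 4 below, with a median of 0.11 against -0.01 over all. On 7 probe sets (30.4%) every siRNA array lay above every control array, against 9.51% of all, and on 0 every siRNA array lay below, against 10.3% of all. Those 7 were 3 of HLA-C and 1 each of HLA-E, B2M, TAP1 and TAPBP. The HLA-C probe sets share a target, so the 7 are not separate pieces of evidence.

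TAP1 came nearest to a call in OCI-Ly7. It read 10.21, 10.29 and 10.31 on control arrays and 10.58, 10.56 and 10.56 on siRNA arrays, a clear gap between the groups. Its change was 0.30 ± 0.08 (SE; 95% interval 0.12 to 0.47; limma, adjusted p = 0.105). TAPBP 208829_at read 11.72, 11.58 and 11.75 against 11.92, 11.94 and 11.97, opposite in direction to Pfeiffer (0.26, 0.03 to 0.48, adjusted p = 0.336), while TAPBP 1555565_s_at stood at 0.09 (-0.17 to 0.34). HLA-C 214459_x_at stood at 0.17 (0.05 to 0.29, adjusted p = 0.22), 208812_x_at at 0.11, 211799_x_at at 0.09 and 216526_x_at at 0.06. HLA-B stood at 0.00, 0.04 and 0.11 with its 3 probe sets.

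HLA-E 200904_at had a mean of 11.21 in both OCI-Ly7 groups and an interval of -0.16 to 0.15. HLA-E 200905_x_at stood at 0.11 (0.01 to 0.22) and 217456_x_at at 0.03. HLA-F stood at 0.17, 0.13 and -0.09 with 204806_x_at, 221875_x_at and 221978_at. B2M stood at 0.14 with 201891_s_at, whose siRNA arrays of 15.40, 15.54 and 15.43 all lay above the control arrays of 15.28, 15.35 and 15.32, and at 0.15 with 216231_s_at. The dim B2M 232311_at had the largest value, 0.56, with an interval of 0.05 to 1.07 and overlapping arrays. TAP2 stood at 0.02 with the bright 225973_at, -0.32 with 204769_s_at and 0.21 with 204770_at. The dim TAP2 208428_at read 5.72, 4.66 and 4.71 against 6.36, 5.41 and 5.04. The dim TAPBP 210294_at read 6.57, 5.10 and 6.16 against 6.36, 7.03 and 5.45. NLRC5 stood at 0.14 (-0.07 to 0.36, adjusted p = 0.64).

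**Figure D3:**
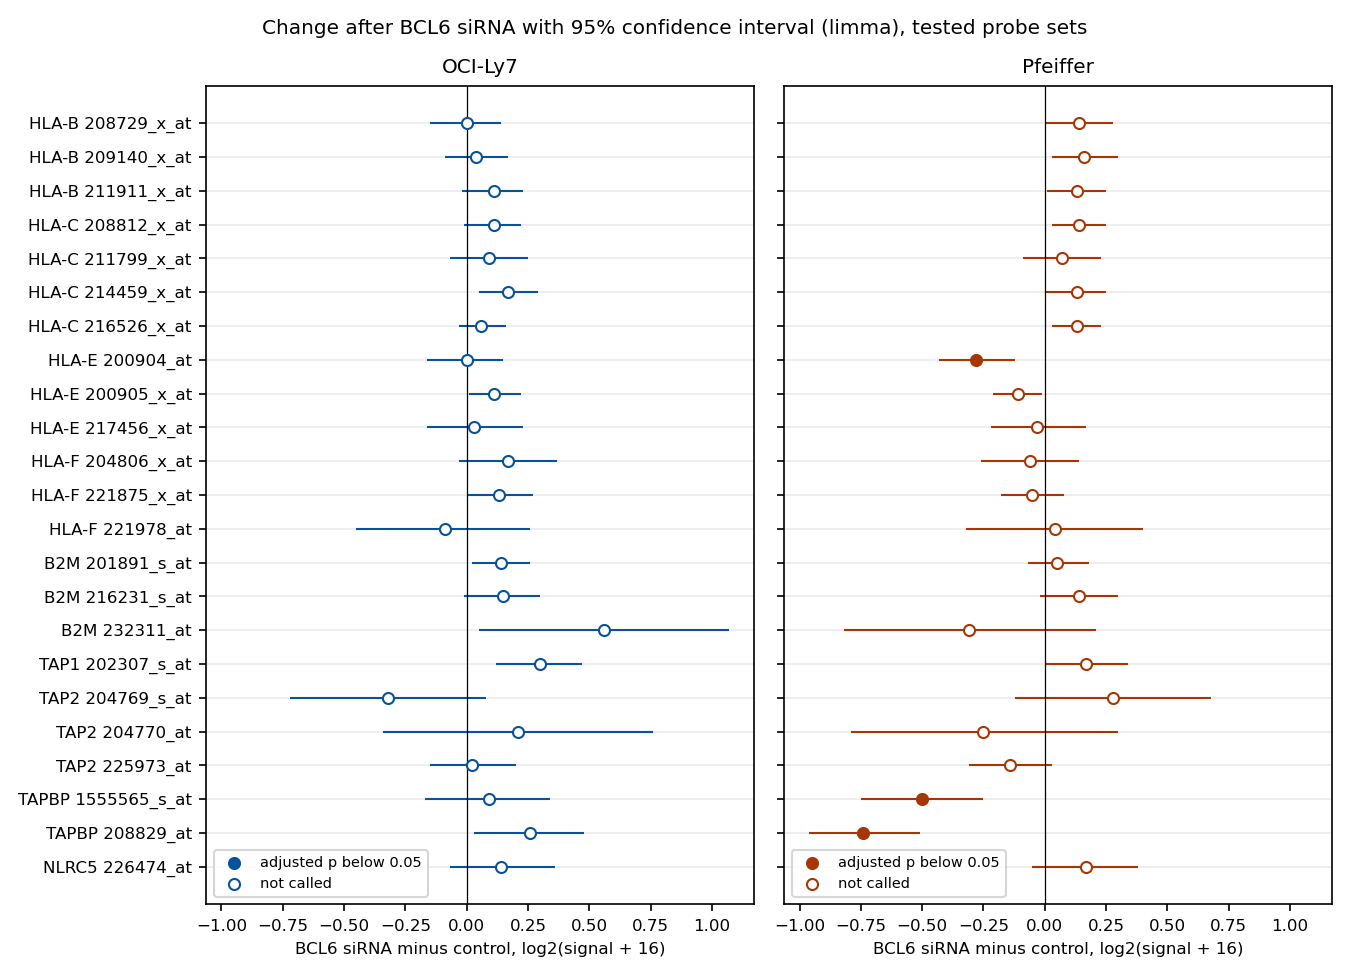
Change of each of the 23 tested probe sets, BCL6 siRNA minus control as log2(signal + 16), in OCI-Ly7 and in Pfeiffer, with limma's 95% confidence interval. Filled points passed an adjusted p of 0.05, which 0 did in OCI-Ly7 and 3 did in Pfeiffer, the 2 TAPBP probe sets at -0.50 and -0.74 and HLA-E 200904_at at -0.28.

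The response of TAPBP differed between the lines. For 208829_at the Pfeiffer change minus the OCI-Ly7 change was -1.0 ± 0.15 (SE, limma interaction, adjusted p = 0.00106). It was the 1 probe set of 23 that passed, or 4.35%, against 5.07% of all tested, 2.42% higher and 2.64% lower. At an unadjusted p of 0.05 these shares were 26.1% and 18.2%. All 3 siRNA arrays lay above the controls in OCI-Ly7 and below them in Pfeiffer. TAPBP 1555565_s_at gave -0.59 ± 0.17 (adjusted p = 0.0564) and was called without Pfeiffer control replicate 2 (-0.69, adjusted p = 0.0291) or Pfeiffer siRNA replicate 3 (-0.64, adjusted p = 0.0481). HLA-E 200905_x_at gave -0.22 ± 0.07 (adjusted p = 0.0761). For HLA-E 200904_at, called in Pfeiffer and not in OCI-Ly7, the difference between the lines was not called (-0.27, adjusted p = 0.163). NLRC5 gave 0.02, HLA-B 0.02 to 0.14, HLA-C -0.04 to 0.06 and TAP1 -0.13, none called.

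Several markers of B cell stage moved in Pfeiffer along with TAPBP. Of 5 B cell markers 4 fell, and the summed linear signal of all 5 was 44015 to 44521 on control arrays and 29319 to 33356 on siRNA arrays. Of 3 tested plasma cell markers 3 rose, and the summed signal of all 4 analysed was 20453 to 20853 on control and 30845 to 32725 on siRNA arrays. Such a sum mainly reflects its brightest probe sets, with MS4A1 the brightest B cell marker and XBP1 the brightest plasma cell marker, and says little about the dimmer ones. The 3 germinal centre markers did not move together in Pfeiffer. BCL6 fell, MME rose (0.49, limma, adjusted p = 0.000448) and CD38 was not called (-0.05). MME and CD38 were not called in OCI-Ly7 (-0.08 and 0.09). In OCI-Ly7 the B cell sum was 49486 to 51684 against 59312 to 60434 after siRNA, and the plasma cell sum 11738 to 12702 against 15114 to 16281. There 2 of 5 B cell markers were called higher, CD79B and CD79A, the latter lost under 8 of 22 alternatives, and 2 of 3 plasma cell markers, XBP1 and PRDM1, the latter lost under 15 of 22. In Pfeiffer BCL6 also fell further than in OCI-Ly7, by 0.54 (limma interaction, adjusted p = 0.00789; 0.0665 without a trend). The part of these differences in the TAPBP change was not tested. Among all probe sets tested, 4.91% were called higher and 5.02% lower in Pfeiffer, and 0.623% and 0.48% in OCI-Ly7.

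Other genes of the pathway were read from 5 lists of 55 genes, each through its brightest probe set. The counts called in these lists stand beside 1.1% of all probe sets tested in OCI-Ly7 and 9.94% in Pfeiffer. In Pfeiffer 1 call in a list of 10 genes is thus near the share of all. Of 9 loading and trimming genes analysed, ERP29, a lumenal protein of the endoplasmic reticulum, rose in OCI-Ly7 (0.40 ± 0.05, limma, adjusted p = 0.0019; 0.0515 without a trend) and 0 fell, with a median of 0.18 over the list. TAPBPL, a relative of tapasin that edits peptides, stood at 0.50 there (adjusted p = 0.0564). Every OCI-Ly7 siRNA array lay above every control array for all genes of this list but CANX, against 9.51% of all probe sets. In Pfeiffer PDIA3, the disulfide isomerase that works beside tapasin in the loading complex, fell from 14.49 ± 0.02 to 14.25 ± 0.08 (SD, n = 3 each; -0.23, limma, adjusted p = 0.0107; 0.075 without a trend) and 0 rose, with a median of 0.00. Both responses differed between the lines, ERP29 by -0.46 (adjusted p = 0.00226) and PDIA3 by -0.42 (adjusted p = 0.00345). TAPBPL stood at 0.00 in Pfeiffer. There the siRNA arrays lay above all control arrays for P4HB only and below them for PDIA3 only. Of all probe sets 13.4% did so in either direction. Between the control groups all 9 genes of this list were called, 8 higher in Pfeiffer and 1 lower, where 71.2% of all probe sets tested were called. PDIA3 differed by 2.13, CALR by 1.82 and CANX by 1.43, and ERAP2 by -3.

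Of 10 proteasome genes 0 were called in OCI-Ly7, with a median of 0.03. The 4 with the lowest p were PSME1, a subunit of the PA28 activator (0.23, adjusted p = 0.078), and the immunoproteasome subunits PSMB8 (0.17, adjusted p = 0.123), PSMB10 (0.17, adjusted p = 0.32) and PSMB9 (0.13, adjusted p = 0.353). On these 4 of 10 every siRNA array lay above every control array, against 9.51% of all probe sets, and on the other 6 the arrays overlapped. In Pfeiffer 1 of 10 fell, PSME3 of the nuclear activator (-0.27, adjusted p = 0.0483), a narrow call lost under 15 of 21 alternatives. The response of PSMB10 differed between the lines by -0.36 (limma interaction, adjusted p = 0.0468), lost under 14 of 21.

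Of 14 transcription factor genes 0 were called in OCI-Ly7 and 1 fell in Pfeiffer. That was IRF9, the DNA-binding part of the type I interferon factor ISGF3, which went from 9.99 ± 0.13 to 9.43 ± 0.14 (SD, n = 3 each; -0.56, limma, adjusted p = 0.00215). NFKB1 stood at -0.26 in OCI-Ly7 (adjusted p = 0.067) and -0.21 in Pfeiffer (adjusted p = 0.0548). RFXANK, a subunit of the RFX complex that binds class I and class II promoters, stood at 0.30 in OCI-Ly7 (adjusted p = 0.0917) and at 0.02 in Pfeiffer. IRF1, an interferon-induced activator of class I genes, stood at 0.30 in OCI-Ly7 (adjusted p = 0.502).

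Of 7 interferon receptor and kinase genes 0 were called in OCI-Ly7 and 2 fell in Pfeiffer. JAK1, a kinase of all interferon receptors, went from 13.54 ± 0.03 to 13.06 ± 0.09 (SD, n = 3 each; -0.48, limma, adjusted p = 3.53e-05), and this differed from OCI-Ly7 by -0.55 (adjusted p = 0.000612). IFNAR1, a chain of the type I receptor, stood at -0.36 (adjusted p = 0.0477), a narrow call lost under 16 of 22 alternatives. Of 8 tested class I-like genes 0 were called in either line. HLA-G, read by 211528_x_at, stood at 0.09 in OCI-Ly7 and -0.01 in Pfeiffer. Between the control groups it was 1.89 higher in Pfeiffer (limma, adjusted p = 5.01e-12), and the 3 other HLA-G probe sets by 0.54 to 1.82. These all end in _x_at, as do those of HLA-B and HLA-C, and their signal may not be that of 1 gene.

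**Figure D4:**
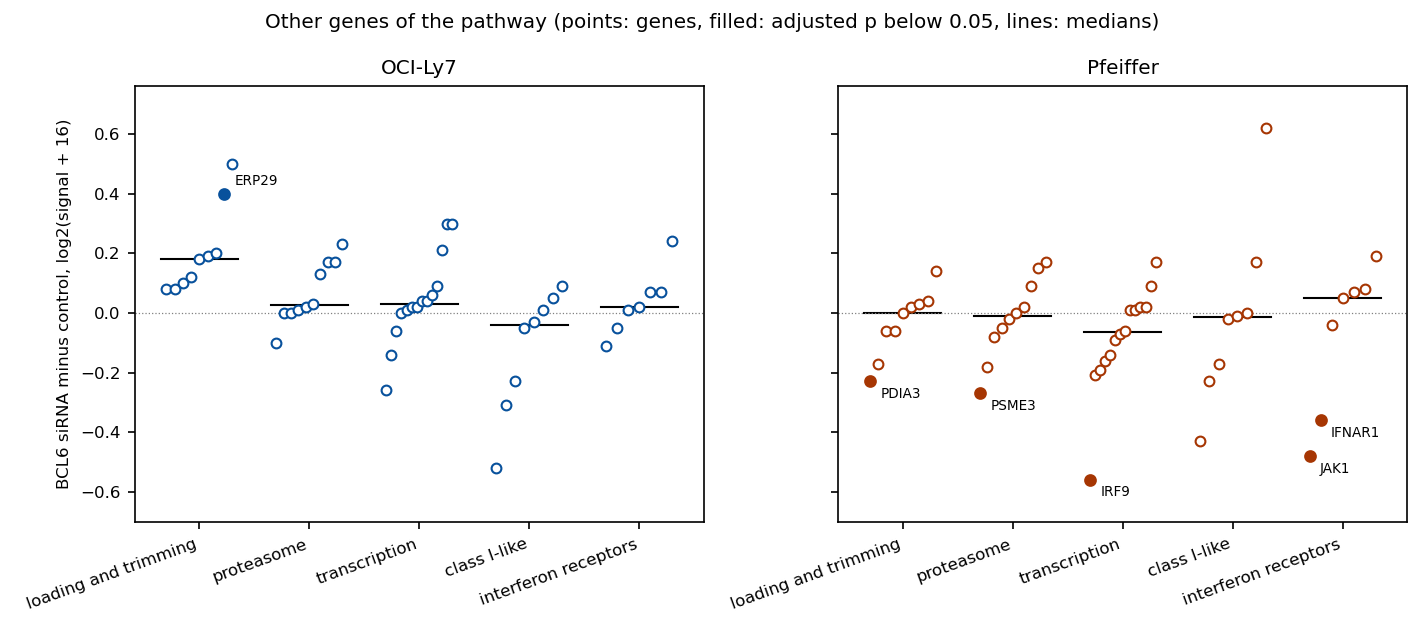
Change after BCL6 siRNA, as log2(signal + 16), of the tested genes of the 5 pathway lists in OCI-Ly7 and Pfeiffer. Each point is 1 gene, filled and named where the adjusted p is below 0.05, and lines are list medians. ERP29 is the 1 filled gene in OCI-Ly7 at 0.40, and the 5 in Pfeiffer all lie below 0. Of all probe sets tested 1.1% were called in OCI-Ly7 and 9.94% in Pfeiffer.

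The genes whose values followed the members most closely were looked for across all 12 arrays, with each line centred on its own mean. The members' pattern was the mean of 9 brightest tested probe sets, 1 per gene, which themselves correlated with it at 0.08 (TAP2) to 0.78 (HLA-E). Among 11752 other genes the 6 closest were PSME1 (r = 0.923), RRBP1, a ribosome-binding protein of the endoplasmic reticulum (0.916), the prefoldin subunit PFDN5 (0.916), ARHGAP18 (0.91), PPP1R7 (0.909) and NIPA2 (0.905). These 12 points share arrays, scaling and the siRNA groups, so the correlations are a description. Of the 6, RRBP1 (0.58, adjusted p = 0.0084) and NIPA2 (0.28, adjusted p = 0.0154) rose in OCI-Ly7 by limma, and 0 were called in Pfeiffer. Of all probe sets tested 1.1% were called in OCI-Ly7 and 9.94% in Pfeiffer. The 6 were chosen by their values on these same arrays, siRNA groups included, so their calls are no separate evidence.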

How the data were processed

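The deposited table holds log2 signals of 54675 probe sets. Per the submitters' processing notes the authors made them with MAS5 and affy, with no version given; transformed back, each array had a mean of 500.0 once 2% of its probe sets were trimmed from the top and the bottom. The deposited log2 values were thus scaled per array and were not normalized further here. Subtraction of mismatch probes in MAS5 adds noise to dim probe sets, and no detection calls were used. Arrays give no read depth, and 3 per group limit the precision. Median signals were 71.3 to 85.

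The 62 control probe sets were left out and 16 was added to each signal before log2. Probe sets in the upper 0.5 by the higher line mean were tested in limma (lmFit and eBayes with trend) with 4 group means on 12 arrays, 8 residual and a median of 6.9 prior degrees of freedom. SE is limma's moderated standard error, and intervals are 95% and unadjusted. The fit was checked on simulated data. Symbols are those of the platform annotation of the array. Genes named are all 9 members, up to 4 genes of a list and line with the lowest p, the 6 closest followers and BCL6. The members, lists and tests were chosen with earlier results of these data known. Replicate numbers did not pair arrays (correlations of same-numbered deviations -0.022 to 0.044). As alternatives, limma was rerun after quantile normalization, with 1 or 64 added to the signal, with other filters, without a trend, with a replicate block, on 1 probe set per gene, without _x_at and _s_at probe sets, on each line alone and without each array in turn. R 4.3.3, limma 3.58.1, data.table (1.17.8), Python 3.11.15, numpy 2.4.6, pandas 2.3.3 and matplotlib 3.10.9 were used.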

Additional observations from a re-analysis of the deposited data

Results flagged for a closer look

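The change after BCL6 siRNA differed between the lines, by the interaction contrast in limma (Pfeiffer change minus OCI-Ly7 change, adjusted p below the threshold), for TAPBP 208829_at (-1.0, adjusted p = 0.00106) among the members. In the pathway lists it did for ERP29 (-0.46), PDIA3 (-0.42), PSMB10 (-0.36), IRF9 (-0.60), JAK1 (-0.55) and IFNAR1 (-0.60). Among the markers it did for CD79B (-1.10), CD22 (-1.13), PAX5 (-0.71), MS4A1 (-0.56), CD79A (-0.46), BCL6 (-0.54), MME (0.57), IRF4 (0.78) and PRDM1 (0.93). Without limma's trend the differences of PAX5 (adjusted p = 0.105), CD79A (0.0869), BCL6 (0.0665), IFNAR1 (0.0598) and PSMB10 (0.148) were not called.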

How the results depend on the processing

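TAPBP 208829_at kept its call in Pfeiffer and for the difference between the lines under all alternatives run (-0.86 to -0.62 and -1.12 to -0.88). Counts of called members stayed at 0 in OCI-Ly7. In Pfeiffer leaving out each array gave 2 to 3, and the count went from 3 to 1 with 1 probe set per gene, the brightest. There TAPBP was read by 208829_at alone. HLA-E was read by 200905_x_at, which the main fit did not call either (limma, adjusted p = 0.182). For the difference between the lines the count of 1 became 3 in the upper 0.25 of probe sets and 2 with 1 probe set per gene, and 1 to 2 without single arrays. Between the controls 14 (12 higher and 2 lower in Pfeiffer) became 7 with 1 probe set per gene (6 higher and 1 lower), and 13 to 15 without single arrays. Without _x_at and _s_at probe sets 3 of 7 were called, and the direction turned to 1 higher and 2 lower. No HLA-B or HLA-C probe set was left in that setting, so it cannot test their line difference. Over all probe sets, the calls in OCI-Ly7 went from 301 to 196 with no filter, 84 without a trend, 153 with the replicate block and 155 without _x_at and _s_at, and 112 (without OCI-Ly7 siRNA replicate 1) to 396 without single arrays. In Pfeiffer 2713 became 1767 without a trend, 1603 with 1 probe set per gene and 1474 without _x_at and _s_at, and 1774 (without Pfeiffer control replicate 3) to 2649 without single arrays. For the difference 1384 became 739, 870 and 705 under the same 3 settings, and 947 to 1544 without single arrays, and between the controls 19454 became 11237 in the upper 0.25, 7867 with 1 probe set per gene and 12615 without _x_at and _s_at. Leaving out single arrays gave 18494 to 19705 there. Settings that drop probe sets test fewer of them, and the causes of these shifts were not tested. The replicate block ended the calls of HLA-E 200904_at (adjusted p = 0.0544), IFNAR1 (0.0985) and PSME3 (0.0663) in Pfeiffer and of BCL6 (0.0537), CD79A (0.0945) and PRDM1 (0.0572) in OCI-Ly7, and the differences between the lines of IRF9 (adjusted p = 0.078), IFNAR1 (0.0863), PSMB10 (0.0812) and CD79A (0.0553). It ended no other call of a member, a list gene or a marker in either line or between them. Of 1842 values of single member probe sets under an alternative, 10 lost a call, 13 gained one and 0 changed sign while called; 46 changed sign without being called in either setting.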

Other observations

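The genes next to TAPBP were looked at in turn. Of the 5 protein-coding genes on either side, by the order of starts in the RefSeq table, 8 were tested, and in Pfeiffer 0 were called lower and 1 higher, the kinesin KIFC1 (0.61, limma, adjusted p = 0.00356), with a median of 0.00. The adjoining RGL2 stood at 0.00 and ZBTB22 at -0.03 (adjusted p = 0.978). These neighbours were chosen after the TAPBP value had been seen.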
